A study of Homo sapiens with 32 samples.

Results

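AADACL4, AADACL3, CFAP107, PRAMEF12, PRAMEF1, HNRNPCL1 and HNRNPCL2 are neighbouring protein-coding genes of 1p36.21, on the short arm of human chromosome 1. They were described here by how much of each gene was covered by islands of the histone mark H3K27me3. These 7 genes of 19974 protein-coding genes were selected on their mean coverage, which earlier work on these files had found higher in cells given a p38 inhibitor, alone or with an EZH2 inhibitor. Values of P38i and combo against the other groups are therefore given as a description, with no test. Coverage is the percent of a gene's span plus 2.5 kb on each side that lies inside islands, which are the broad enriched regions the authors called in each library. All coordinates are on hg38. The cluster ran from 2.5 kb before AADACL4 to 2.5 kb after HNRNPCL2, chr1:12641585-13119354, a span of 478 kb.

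The cells were MDA-MB-231, an established human triple-negative breast cancer line, and every group was this one line. The 4 groups were cells given the p38 inhibitor (P38i), both inhibitors together (combo), the EZH2 inhibitor alone (EPZ, titled EP7), and cells with no treatment (control). Treatment lasted 24 h, doses were not given in the labels, and each group had 4 H3K27me3 libraries made by ChIPmentation, an immunoprecipitation in which a transposase adds the sequencing adapters on the beads. A further 16 libraries made with IgG were not analysed here. The labels do not say that replicates were separate cultures, so the spread between libraries may be technical. The island lists give positions only, so read depth is unknown and a value says how much was called, not how much of the mark was present.

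EZH2 is the methyltransferase of Polycomb repressive complex 2, which places H3K27me3 on genes that a cell keeps silent, often as broad domains. The p38 kinases are stress-activated MAP kinases. AADACL3 and AADACL4 are named for their likeness to arylacetamide deacetylase, a hydrolase of the endoplasmic reticulum. CFAP107 is a cilia and flagella associated protein. PRAMEF12 and PRAMEF1 belong to the PRAME family of leucine-rich repeat proteins, named for a tumour antigen and known mostly from testis. HNRNPCL1 and HNRNPCL2 resemble hnRNP C, a protein that binds nascent RNA. The PRAMEF and HNRNPCL genes of 1p36.21 lie among many near copies of each other.

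The repeated copies can be read from the promoter windows, which hold 250 bases before and 50 after a gene's start in RefSeq (GRCh38.p14). The promoters of 4 members are shown because they hold 1 shared stretch of 16 bases, in capitals, on the gene's own strand. PRAMEF12 is at chr1:12773488-12773787 (plus strand), PRAMEF1 at chr1:12791147-12791446 (plus strand), HNRNPCL1 at chr1:12848671-12848970 (minus strand) and HNRNPCL2 at chr1:13116805-13117104 (minus strand).
PRAMEF12: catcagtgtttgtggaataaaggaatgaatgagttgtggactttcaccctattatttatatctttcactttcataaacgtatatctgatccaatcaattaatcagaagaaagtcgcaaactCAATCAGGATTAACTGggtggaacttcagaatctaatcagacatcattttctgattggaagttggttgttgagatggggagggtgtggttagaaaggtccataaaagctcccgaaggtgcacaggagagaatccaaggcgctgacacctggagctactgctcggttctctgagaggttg
PRAMEF1: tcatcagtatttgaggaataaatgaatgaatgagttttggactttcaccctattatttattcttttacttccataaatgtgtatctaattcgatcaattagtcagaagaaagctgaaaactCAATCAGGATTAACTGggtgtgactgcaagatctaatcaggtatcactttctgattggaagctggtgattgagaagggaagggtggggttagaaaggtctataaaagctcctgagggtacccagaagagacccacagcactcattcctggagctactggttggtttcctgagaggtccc
HNRNPCL1: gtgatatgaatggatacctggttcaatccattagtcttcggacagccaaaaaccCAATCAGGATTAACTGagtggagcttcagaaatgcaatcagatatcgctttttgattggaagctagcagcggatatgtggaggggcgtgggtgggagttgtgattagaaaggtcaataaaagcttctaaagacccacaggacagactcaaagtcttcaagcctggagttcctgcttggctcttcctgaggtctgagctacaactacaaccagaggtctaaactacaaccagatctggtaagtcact
HNRNPCL2: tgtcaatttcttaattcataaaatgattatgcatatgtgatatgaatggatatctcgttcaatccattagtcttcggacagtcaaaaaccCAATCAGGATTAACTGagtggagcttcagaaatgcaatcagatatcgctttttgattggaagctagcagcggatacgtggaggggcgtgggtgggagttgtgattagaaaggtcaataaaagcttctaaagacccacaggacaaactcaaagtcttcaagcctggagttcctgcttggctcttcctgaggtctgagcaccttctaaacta

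The stretch CAATCAGGATTAACTG, searched on both strands, was in 16 of 35116 promoters, or 0.0456%. All 16 belonged to PRAMEF and HNRNPCL genes of 1p36.21, of which 21 had a promoter in the table. Its first bases overlap the shorter motif CCAAT in HNRNPCL1 and HNRNPCL2, and CCAAT on either strand was in 34.6% of all promoters. The PRAMEF12 and PRAMEF1 promoters shown were identical at 83.1% of aligned positions, and those of HNRNPCL1 and HNRNPCL2 at 77.1%. Promoters of the members held few CpG. Many others did too, as 43.6% of all promoters had 9 or fewer and the lower quartile was 4. AADACL3 had 3 CpG, CFAP107 had 1, PRAMEF12 had 5, PRAMEF1 had 1 (3 in its second listed promoter), HNRNPCL1 had 4 and HNRNPCL2 had 6, against a median of 14 over all promoters. AADACL4 was not matched to a promoter.

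Islands at the promoter windows differed between the members. The CFAP107 promoter held an island in 4 P38i, 3 combo, 4 EPZ and 3 control libraries. The PRAMEF12 promoter held one in 4 P38i, 4 combo, 3 EPZ and 2 control libraries. The AADACL3 promoter held one in 2 P38i, 3 combo, 1 EPZ and 2 control libraries, although all 16 libraries had an island somewhere in its window. HNRNPCL1 had an island at its promoter in 3 P38i, 3 combo, 2 EPZ and 2 control libraries, and HNRNPCL2 in 3, 1, 1 and 2. PRAMEF1 had none at either of its listed promoters in any of the 16 libraries.

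The cluster had a covered stretch and a sparse one. From AADACL4 to PRAMEF12, a stretch of 139 kb chosen after its values were seen, islands covered 81.7% ± 5.65 in P38i, 73.3% ± 6.96 in combo, 62.3% ± 11.1 in EPZ and 59.7% ± 10.1 in control libraries (mean ± SD, n = 4 each). The 4 P38i libraries lay between 77.7 and 90.1%, above the control range of 50.9 to 73.8%. Combo libraries lay between 63.8 and 79.0% and overlapped the control libraries. From PRAMEF12 to HNRNPCL1, coverage dropped to 20.8% in P38i, 24.3% in combo, 15.6% in EPZ and 17.2% in control libraries. Between HNRNPCL1 and HNRNPCL2, over 262 kb, it was 0.893% in P38i, 1.14% in combo, 0.245% in EPZ and 1.16% in control libraries.

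**Figure D1:**
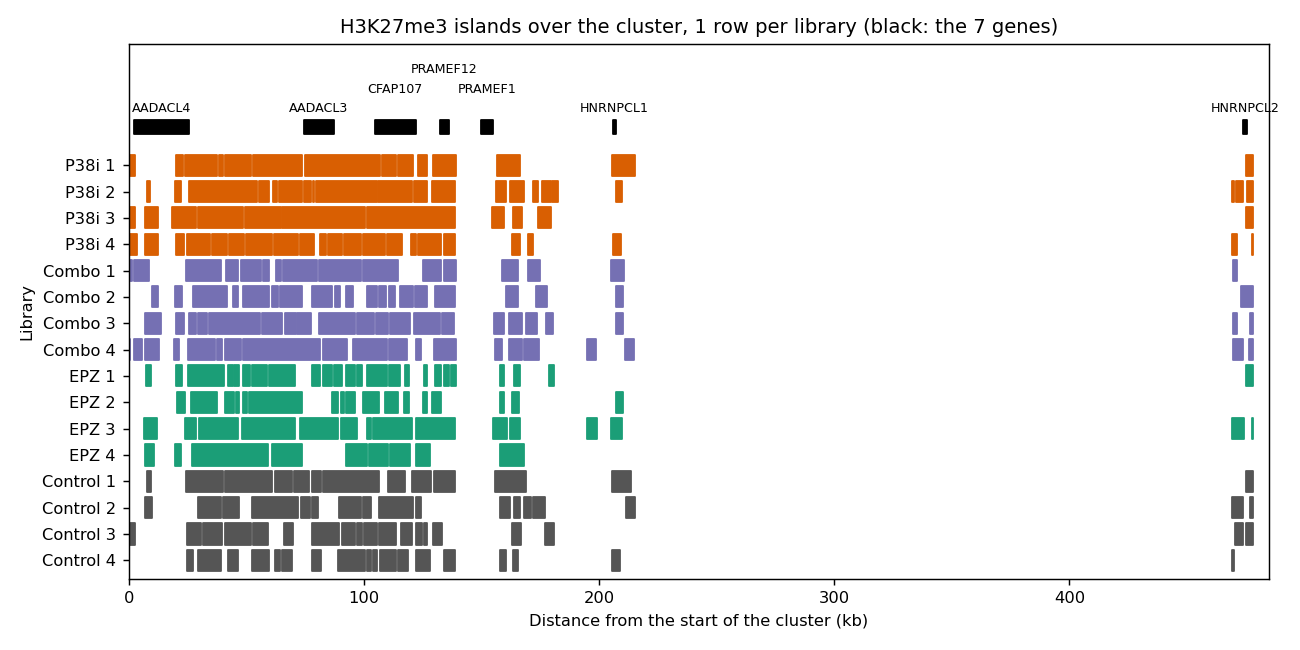
Each row is 1 H3K27me3 library, and each block is an island placed by its distance in kb from the start of the cluster; black blocks above mark the 7 genes. Islands fill from 50.86 to 90.05% of the first 139 kb, depending on the library, and a gap of 253.6 kb before HNRNPCL2 holds none in any library.

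AADACL4 (chr1:12644085-12667076) was the member with the least overlap between groups. Islands covered 33.6, 22.1, 62.8 and 56.4% of it in P38i libraries 1 to 4, and 40.7, 22.8, 44.2 and 53.6% in combo libraries. The EPZ libraries had 26.4, 17.1, 34.9 and 27.1%, and the control libraries 17.8, 10.7, 21.4 and 8.6%. All 4 P38i and all 4 combo libraries lay above all 4 control libraries, but the lowest P38i library (22.1%) and the highest control library (21.4%) were less than 1 percentage point apart. Of the 4105 genes tested, 3.24% had all 4 P38i libraries above control and 1.61% had all 4 combo libraries above control. Means were 43.7% ± 19.1 in P38i, 40.3% ± 12.9 in combo, 26.4% ± 7.31 in EPZ and 14.6% ± 5.99 in control libraries.

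AADACL3 (chr1:12716110-12728760) was covered over most of its length in every P38i and combo library. The values were 93.2, 86.4, 100 and 78.5% in P38i libraries and 95.5, 70.5, 80.7 and 93.2% in combo libraries. They were 53.6, 22.6, 90.6 and 9.0% in EPZ libraries and 88.7, 39.9, 64.6 and 25.3% in control libraries. EPZ replicate 3 and control replicate 1 stood high within their groups and overlapped the P38i and combo values. Means were 89.5% ± 9.20 in P38i, 85.0% ± 11.6 in combo, 44.0% ± 36.3 in EPZ and 54.6% ± 27.9 in control libraries.

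CFAP107 (chr1:12746200-12763699) was well covered in all 16 libraries. Islands covered 82.2, 92.9, 100 and 76.0% of it in P38i libraries and 55.6, 77.8, 85.8 and 77.8% in combo libraries. They covered 64.4, 53.8, 90.2 and 85.3% in EPZ libraries and 70.7, 77.8, 80.4 and 71.6% in control libraries. All groups overlapped. The mean was 87.8% ± 10.7 in P38i, 74.2% ± 13.0 in combo, 73.5% ± 17.2 in EPZ and 75.1% ± 4.76 in control libraries, so the combo mean was 0.888 percentage points below control, against the rule that named this gene.

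PRAMEF12 (chr1:12773738-12777906), whose mouse relative acts in spermatogenesis, had the widest spread of the genes in the covered stretch within the EPZ and control groups. P38i libraries had 100, 99.9, 99.9 and 84.7%, and combo libraries had 84.7, 93.8, 82.5 and 96.0%. EPZ libraries had 69.9, 36.7, 99.9 and 0%, and control libraries had 96.0, 0, 38.9 and 52.4%. Every P38i and combo library was above 82%, while EPZ and control libraries ran over nearly the whole scale and overlapped them. Means were 96.1% ± 7.65 in P38i, 89.3% ± 6.66 in combo, 51.6% ± 43.0 in EPZ and 46.8% ± 39.6 in control libraries. The combo minus control difference of 42.5 percentage points became 26.9 without control replicate 2, the library with no island there.

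PRAMEF1 (chr1:12791397-12796628) was barely covered. It had 9.1, 13.0, 28.6 and 0% in P38i libraries, and 0, 0, 22.8 and 16.9% in combo libraries. In EPZ libraries it had 0, 0, 26.7 and 0%, and in control libraries 16.9, 0, 0 and 0%. Islands touched its window in 7 of 16 libraries, and they lay mostly in the flank. The gene itself, without flanks, was listed above 0 only in P38i replicate 3 (8.18%) and EPZ replicate 3 (4.36%).

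HNRNPCL1 (chr1:12847377-12848720) had a window that was either partly covered or empty, in every group. It had 66.5, 41.3, 0 and 53.6% in P38i libraries and 69.7, 38.1, 41.3 and 0% in combo libraries. EPZ libraries had 0, 41.3, 69.4 and 0%, and control libraries 66.5, 0, 0 and 56.7%. Its means were 40.4% ± 28.8 in P38i, 37.3% ± 28.6 in combo, 27.7% ± 33.9 in EPZ and 30.8% ± 35.8 in control libraries. They differed by less than their SD. Without flanks, the gene was at 8.93% in P38i replicate 2, combo replicate 3 and EPZ replicate 2, and at 0 in combo replicate 2. In the other libraries with an island in the window it was at 98.2 to 100%.

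HNRNPCL2 (chr1:13115488-13116854), beyond the long gap, went against the rule. It had 40.1, 71.7, 43.3 and 5.6% in P38i libraries, 0, 77.8, 18.1 and 59.2% in combo libraries, 40.1, 0, 46.6 and 0% in EPZ libraries, and 43.3, 56.0, 81.2 and 0% in control libraries. With flanks, its means were 40.2% ± 27.1 in P38i and 38.8% ± 35.9 in combo libraries. They were 21.7% ± 25.2 in EPZ and 45.1% ± 33.9 in control libraries, so control was the highest. Without flanks, the gene averaged 5.63% in P38i, 6.71% in EPZ and 9.29% in control libraries. It was at 100% in combo replicate 2 and at 0 in the other combo libraries. Combo minus control was then 15.7 percentage points, which rests on that replicate alone. With flanks, the other 5 genes apart from CFAP107 and HNRNPCL2 had P38i and combo means above both the EPZ and the control mean.

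**Figure D2:**
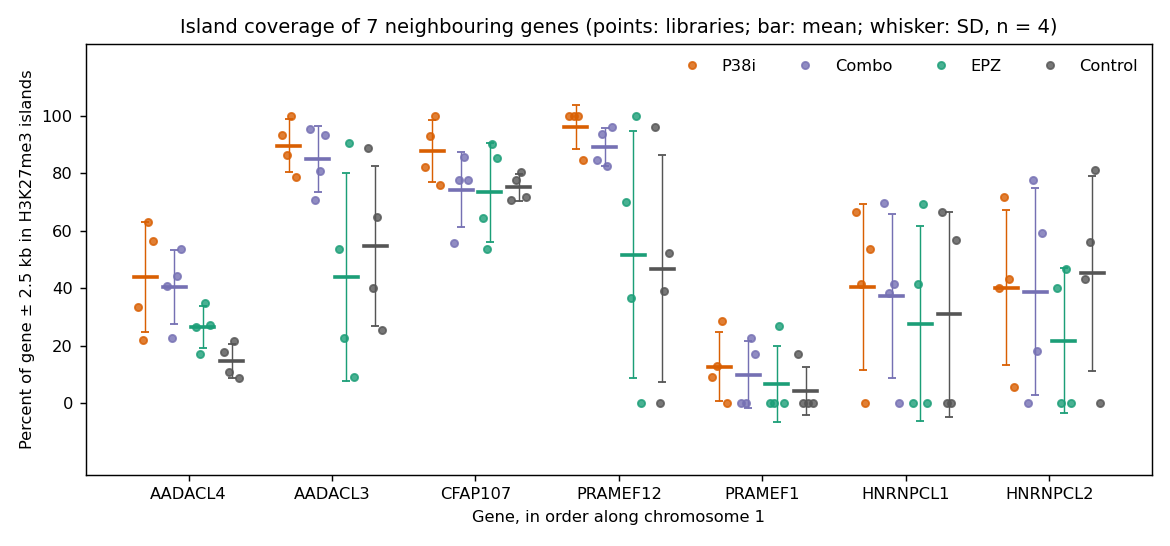
The vertical axis is the percent of each gene and its 2.5 kb flanks covered by islands; points are libraries, thick bars are means and whiskers are SD (n = 4). P38i and combo points sit high and close together at AADACL3 and PRAMEF12, and all groups spread widely at HNRNPCL1 and HNRNPCL2.

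The members did not all vary together over the 16 libraries. AADACL3 and PRAMEF12 had a Pearson correlation of 0.87, AADACL4 and AADACL3 one of 0.62, and HNRNPCL1 and HNRNPCL2 one of -0.32. The points share libraries and treatment groups, so these are descriptions. The covered length of the whole cluster had a correlation of 0.68 with the covered length of the whole library. Libraries covered 620 ± 61.5 Mb in P38i, 565 ± 43.2 Mb in combo, 527 ± 56.4 Mb in EPZ and 589 ± 78.0 Mb in control (SD, n = 4 each). Control replicate 1 had the highest of the control values, 669 Mb, and the highest control coverage of the cluster, 26.4%. When the lists were trimmed to equal length by leaving out the narrowest islands, the P38i minus control difference over the cluster was 9.04 percentage points, against 6.73 as deposited. For combo minus control it was 6.17, against 4.94, and for EPZ minus control it was 5.46, against -0.281.

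The layout of the islands was read next, over the 139 kb from AADACL4 to PRAMEF12. The number of islands there was similar, with means of 11.8 in P38i, 13.8 in combo, 12.8 in EPZ and 12.3 in control libraries. The longest island averaged 27.4 ± 11.5 kb in P38i, 21.7 ± 7.87 kb in combo, 23.1 ± 7.07 kb in EPZ and 16.6 ± 6.32 kb in control libraries. Single libraries overlapped widely. P38i libraries ran from 11 to 37.6 kb, and control libraries from 11.2 to 24 kb. Islands covered 113 ± 7.85 kb in P38i, 102 ± 9.66 kb in combo, 86.5 ± 15.5 kb in EPZ and 82.8 ± 14 kb in control libraries.

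The ground between the genes was not covered evenly. Between the AADACL4 and AADACL3 windows, over 44.0 kb, coverage averaged 93.4% ± 0.879 in P38i, 87.3% ± 4.82 in combo, 88.4% ± 6.26 in EPZ and 77.7% ± 12.7 in control libraries. Between the CFAP107 and PRAMEF12 windows, over 5.04 kb, it averaged 76.2% in P38i, 58.9% in combo, 60.9% in EPZ and 45.9% in control libraries. Of the 696 windows of 200 bp in the 139 kb, 11.2% lay in islands in all 16 libraries, against 6.14% of windows on chromosomes 1 to 22 and X. The longest such run was 2.8 kb, chr1:12708201-12711000, between AADACL4 and AADACL3. Another of 2.4 kb, chr1:12752601-12755000, lay in CFAP107. Only 3.45% of the windows were in no island in any library, against 67.5% over those chromosomes. The shares of 11.2% and 6.14% therefore rest on unlike bases and do not show that islands were more constant here.

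The windows in islands in every library of a group were counted next, a share that rises with coverage itself. All 4 P38i libraries covered 58.9% of these windows, all 4 combo libraries 37.1%, all 4 EPZ libraries 32.5% and all 4 control libraries 30.5%. Over chromosomes 1 to 22 and X the shares were 13.2% in P38i, 10.9% in combo, 9.61% in EPZ and 11.9% in control libraries. The genes were chosen on their P38i means and the stretch on its values, so the next share is a description shaped by that choice. Windows in islands in all 4 P38i libraries and no control library came to 2.2 kb, or 1.58% of the stretch, against 0.0569% over those chromosomes. They formed a run of 2 kb inside AADACL4, chr1:12661801-12663800, and 1 window in AADACL3, chr1:12718801-12719000. No window was in all 4 combo and no control library, where the share over those chromosomes was 0.0571%.

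Between AADACL3 and CFAP107 the order of groups changed. Over those 12.4 kb, coverage averaged 95.2% ± 6.16 in P38i, 74.3% ± 29.7 in combo, 64.8% ± 5.07 in EPZ and 91.3% ± 8.54 in control libraries. All 4 EPZ libraries, at 61.9 to 72.4%, lay below the control libraries, at 79.6 to 100%. This stretch was singled out after its values were seen and was not tested.

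**Figure D3:**
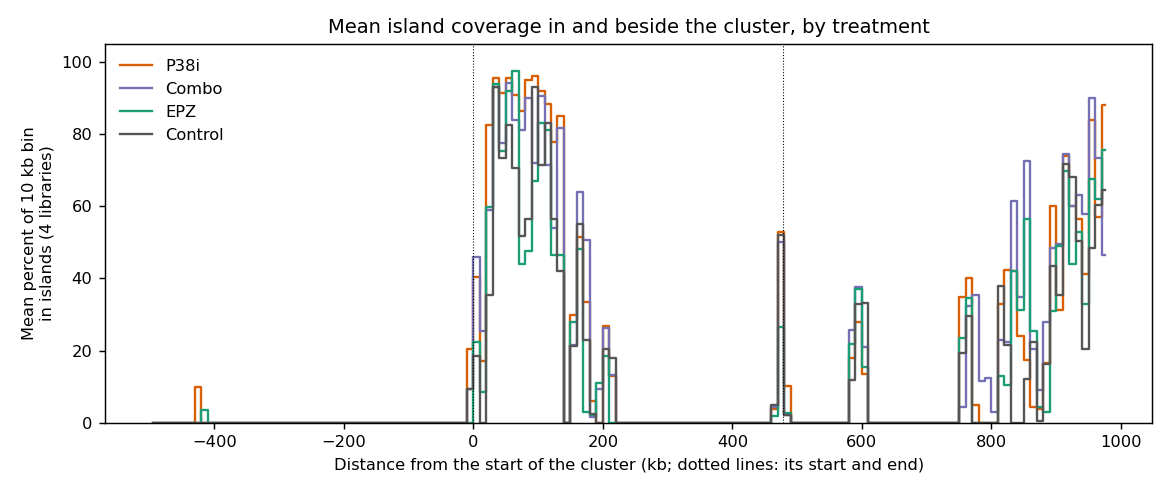
Mean coverage of 10 kb bins (4 libraries per group) is drawn against distance in kb from the start of the cluster, with dotted lines at its start and end. The lines are near 0 before the cluster, reach their highest level over the AADACL4 to PRAMEF12 stretch, and are at 0 for most of the gap before HNRNPCL2.

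The cluster's edges were unequal. The 500 kb before AADACL4 were covered to 0.608% in P38i, 0.188% in combo, 0.0700% in EPZ and 0.189% in control libraries. The 500 kb after HNRNPCL2 were covered to 17.7% ± 5.24 in P38i, 20.5% ± 4.06 in combo, 16.0% ± 2.37 in EPZ and 14.2% ± 5.44 in control libraries. Over all 19974 protein-coding genes, 15518 averaged under 5%. Of the 45 other protein-coding genes within 1 Mb of the cluster, 36 had no island in any library and 4 more averaged above 0 but under 5%. The remaining 5 were tested, and LRRC38, a leucine-rich repeat potassium channel subunit, was the one called, and it is named after its values were seen.

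LRRC38 had 38.6, 45.4, 56.8 and 31.6% in combo libraries, against 19.8, 17.7, 24.4 and 12.7% in P38i libraries. It had 30.9, 36.3, 36.8 and 35.3% in EPZ libraries, against 20.9, 5.45, 0 and 5.45% in control libraries. Both groups with the EZH2 inhibitor lay above their counterparts with no overlap. Its difference was 24.5 percentage points for combo against P38i (limma, adjusted p = 0.0373) and 26.9 for EPZ against control (limma, adjusted p = 0.0253). None of the 7 cluster genes was called in either comparison. Of all genes tested, 1.92% were called for combo against P38i and 3.17% for EPZ against control.

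The gap before HNRNPCL2 bears on the repeated copies. No library had an island in chr1:12857001-13110600, which is 253.6 kb long and holds PRAMEF2, PRAMEF4, PRAMEF10, PRAMEF7, PRAMEF6, PRAMEF27, HNRNPCL3 and PRAMEF25. PRAMEF2, at its edge, had islands in its window in 4 libraries, with a mean of 4.49%, and PRAMEF11, between PRAMEF1 and HNRNPCL1, in 4 libraries, with a mean of 1.58%. Of 26 PRAMEF and HNRNPCL genes of the wider stretch, 8 had an island in any library and 18 had none.

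Copies were compared by the share of 50-base words of a promoter that also occur in another promoter. That share was 85.3% for the PRAMEF1 promoter shown above, most of them shared with PRAMEF2, and 0 for a second PRAMEF1 promoter listed at chr1:12794441-12794740. It was 33.9% for HNRNPCL2 and 22.3% for HNRNPCL1, which share most with each other, and 0 for PRAMEF12, AADACL3 and CFAP107. Over the copies with a promoter in the table, the median share was 28.1% in the 8 with an island, with a range of 0 to 85.3%. In the 13 with none it was 74.5%, with a range of 0 to 94.4%. Reads were paired ends of 50 bases, and how reads that match several copies were treated is not given in the sources used here. Its part in the empty gap was not tested, and a gene with no island here is not thereby free of the mark.

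The EZH2 inhibitor comparisons were not the ones used to choose the genes, but they reuse control, P38i and combo libraries that the choice had read, so their tests are not independent of it. Each was fitted with limma over all 4105 genes whose mean coverage was between 5 and 95%, a filter that all 7 passed. For EPZ against control, 0 of 7 were called at an adjusted p of 0.05 and 0 had an unadjusted p under 0.05, where 3.17% of the genes tested were called. The median difference was -1.67 percentage points over the 7 genes and -4.42 over all genes tested. For combo against P38i, 0 of 7 were called and 0 had an unadjusted p under 0.05, where 1.92% of the genes tested were called. All 7 differences were negative, with a median of -3.41, against -5.14 over all genes tested, of which 23% were positive.

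The intervals were wide. AADACL4 differed by 11.7 percentage points between EPZ and control, with a 95% interval of -6.39 to 29.9 (limma, adjusted p = 0.471). HNRNPCL2 had a difference of -23.4, with an interval of -66.4 to 19.5 (limma, adjusted p = 0.554). That HNRNPCL2 difference was -11.4 without control replicate 3, -38.5 without control replicate 4, -13.3 with the covered length of the library as a covariate, -2.58 with no flank and 10.3 with lists of equal length. CFAP107 had the lowest adjusted p for combo against P38i, 0.379 by limma, with a difference of -13.6 and an interval of -31.2 to 4.05. That CFAP107 difference was -7.33 without combo replicate 1 and -6.74 with the covered length of the library as a covariate. For PRAMEF12 the interval of the combo minus P38i difference ran from -48.2 to 34.4. The fit pools the spread of all 4 groups, and EPZ and control libraries, with SD of 43.0 and 39.6, were not part of this comparison. The P38i and combo libraries had SD of 7.65 and 6.66. The P38i mean of 96.1% left no room for a gain as large as the upper limit.

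The main effect of the EZH2 inhibitor, which sets combo and EPZ libraries against P38i and control libraries, called 0 of 7 genes by limma, where 16.5% of the genes tested were called. None of the 7 had an unadjusted p under 0.05, and the median difference was -3.11, against -4.84 over all genes tested. The interaction, which asks whether the EZH2 inhibitor acted differently with and without P38i, called 0 of 7, with 0 at an unadjusted p under 0.05, where 0.0487% of the genes tested were called.

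**Figure D4:**
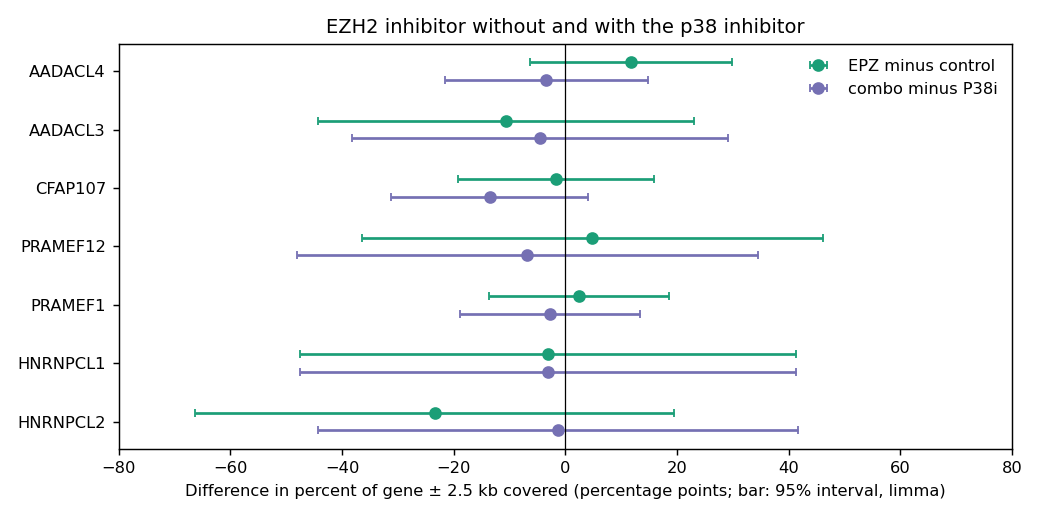
Points are differences in percentage points of coverage for each gene, EPZ minus control and combo minus P38i, and bars are 95% intervals from limma. Every interval crosses 0, and those of PRAMEF12, HNRNPCL1 and HNRNPCL2 are the widest.

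Relatives of the members were mostly empty, but so were most genes, as 15518 of 19974 protein-coding genes averaged under 5%. Most relatives of the PRAME family are the copies of 1p36.21 counted above. Of the AADAC family outside the cluster (AADAC, AADACL2 and NCEH1), 1 had no island in any library and 2 averaged under 5%, so none was tested. Of 22 other PRAME family genes, 17 had no island in any library, 2 averaged under 5% and 3 (PRAME, PRAMEF18 and PRAMEF20) were tested, none of which was called in the EZH2 inhibitor comparisons. PRAMEF20, after HNRNPCL2 on chromosome 1, had 13.9, 54.2, 29.0 and 24.3% in combo libraries, against 0, 12.6, 0 and 16.7% in P38i libraries. The EPZ libraries had 0, 0, 0 and 2.84%, against 0, 11.7, 0 and 0% in control libraries. The groups overlapped in both comparisons, and the PRAMEF20 difference was 22.99 percentage points for combo against P38i (limma, adjusted p = 0.0910). PRAMEF18 averaged 11.4% in combo, against 9.03% in P38i, and 5.05% in EPZ, against 3.12% in control libraries. PRAME itself, on chromosome 22, averaged 16.6% in combo, against 39.5% in P38i, and 12.6% in EPZ, against 23.2% in control libraries. Its groups overlapped in both comparisons. Of 5 other genes like HNRNPC, 4 had no island in any library, and RALYL averaged 31.6% over the 16 libraries and was not called.

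The 5 genes elsewhere whose coverage over the 16 libraries was most like that of the cluster were CMKLR1, SLC24A3, FSTL4, ATP2B2 and TMEM63C, with Pearson correlations of 0.953, 0.937, 0.935, 0.920 and 0.919. They were picked as the highest of all genes with a mean between 5 and 95%, and they share the libraries and their covered length. CMKLR1, a chemerin receptor, averaged 90.1% ± 7.51 in P38i, 88.8% ± 7.53 in combo, 75.9% ± 13.0 in EPZ and 77.5% ± 9.79 in control libraries. As at AADACL3, EPZ replicate 3 (93.2%) and control replicate 1 (89.7%) were the highest of their groups.

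Known genes of the line were also read, as a description. VIM, CD44, AXL, ZEB1, FN1 and EGFR, which this mesenchymal line uses, had no island in any library. Of the luminal genes, PGR averaged 95.4%, FOXA1 56.6% and ESR1 10.2%, while GATA3, ERBB3 and KRT18 had no island in any library.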

How the data were processed

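H3K27me3 was profiled by ChIPmentation in 16 libraries, 4 per group. Each deposited file lists islands by their first and last base on hg38 and holds no other unit, score or count. Per the submitters' processing notes, SICER, bedtools 2.28.0, SAMtools 1.2, Picard, Bowtie2 2.3.4.1, cutadapt, FastQC and Trim Galore were used. Neither their order nor their settings were given in the sources used here. Islands start and end on a grid of 200 bp. The lists differ in total length, which limits comparison between libraries, and no interval from read counts can be given.

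The percent of each gene ± 2.5 kb inside islands was computed in Python 3.11.15 with RefSeq positions. A model with 1 coefficient per group was fitted to all 16 libraries with limma 3.58.1 under R 4.3.3, using its trend and robust settings. It held the 4105 genes with a mean of 5 to 95%, and p-values were adjusted over them by the Benjamini-Hochberg method at a threshold of 0.05. The fit was also run on simulated normal values with shifts in the EZH2 inhibitor main effect only. Each simulated gene had the same spread in every group before values were cut to the possible range, unlike genes such as PRAMEF12. That run therefore does not test the fit for such genes. The 7 genes, the lists of relatives, neighbours and line markers, and the tests were chosen with earlier results of these data known. Named in the text were all 7 genes, neighbours overlapping the cluster, tested relatives, and the 5 genes most correlated with the cluster. Alternatives were other flanks, filters on coverage and island length, lists of equal length, total length as a covariate, an arcsine scale, a replicate block, and each library left out. IgG libraries were not analysed here.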

Additional observations from a re-analysis of the deposited data

Results flagged for a closer look

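In 36 sets of 4 libraries, the distance of the highest or lowest library from its nearest neighbour was set against the range of the set, and 3 stood apart. Chance marks about 1 in 20 sets of independent normal values. The 3 flagged sets hold values tied at 0 or close to 100%, so that rate does not apply to them. At PRAMEF12, P38i replicate 4 had 84.7% of the gene and its flanks in islands, below the other 3 P38i libraries at 99.9 to 100%. At PRAMEF1, EPZ replicate 3 had 26.7% and the other 3 EPZ libraries had 0. At PRAMEF1, control replicate 1 had 16.9% and the other 3 control libraries had 0.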

How the results depend on the processing

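Read depth is unknown, so what was not called cannot be told from what was too shallow to call, and 4 libraries a group left wide intervals. Over the cluster span, leaving out each library in turn gave 5.29 to 8.49 percentage points for P38i minus control, 3.50 to 6.71 for combo minus control, -2.59 to 1.48 for EPZ minus control and -2.66 to -0.524 for combo minus P38i. Over the members' windows only, which leaves out the ground between them, island-rich and island-poor alike, these were 22.8, 16.8, 0.0294 and -5.99. With lists of equal length, EPZ minus control was 5.46. None of the 7 genes was called by limma in any of the 24 alternatives of each EZH2 inhibitor comparison, but PRAMEF1 fell under the filter and was not tested with no flank or with lists of equal length. Of 664 differences under those alternatives 82 changed sign, all of them differences that were not called. For P38i and combo against control, 20 of 318 changed sign. AADACL4, AADACL3 and PRAMEF12 stayed positive in all 23 alternatives of both, while PRAMEF12 in P38i moved to 83.1 with lists of equal length, CFAP107 to 24.7 in P38i and 14.7 in combo, and AADACL4 to 12.7 in combo. Same-numbered libraries did not deviate together, with correlations of -0.151 to 0.178 against -0.204 to 0.163 for other pairs, and 3 of 16 libraries were closest to their own number. With the replicate number as a block, 0 of 7 genes were called, and the 4 differences over the cluster were 6.73, 4.94, -0.281 and -1.79.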
